A study of Homo sapiens with 4 samples.

Results

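The genes of the enzymes that hydroxylate collagen chains and cross-link collagen and elastin were followed across 4 conditions of OVSAYO cells, a human line of ovarian clear cell carcinoma (CCC). The 10 genes were P4HA1, P4HA2 and P4HA3, which encode the catalytic alpha subunits of collagen prolyl 4-hydroxylase, PLOD1, PLOD2 and PLOD3, which encode the lysyl hydroxylases, and LOX, LOXL2, LOXL3 and LOXL4, which encode lysyl oxidases. They were chosen by name, and every non-control probe whose RefSeq accession maps to one of these symbols was taken. This gave 13 of the 41000 probes on the array and 10 of the 17721 genes with a probe. P4HA3, LOXL3 and LOXL4 each had several probes, and the other 7 genes had 1 each.

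Collagen chains are hydroxylated on prolines and lysines in the endoplasmic reticulum before they fold into the collagen helix, and hydroxyproline keeps that helix stable at body temperature. Prolyl and lysyl hydroxylases consume oxygen and 2-oxoglutarate and need iron, and lysyl oxidases are copper enzymes that act outside the cell, where they oxidise lysines so that neighbouring chains become cross-linked. P4HA1, P4HA2, PLOD2 and LOX are widely described as genes that hypoxia-inducible factors (HIFs) activate, and in tumours these enzymes are known for stiffening the matrix around the cells.

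Total RNA was hybridised to single-colour arrays, 1 for each condition and all 4 on 1 slide. NS-si cells had received a negative control siRNA, and Sp1-si cells siRNA against Sp1 (a pool according to the labels, whereas the siRNA list of the study does not call it one), a zinc finger transcription factor that binds GC boxes. In the NS-si → CoCl2 and Sp1-si → CoCl2 conditions, the corresponding cells were then given 0.5 mM CoCl2, a hypoxia-mimicking agent, for 4 h. The labels put 40 h of culture between transfection and this exposure, and a figure legend of the study gives a shorter time. The design asks which transcripts respond to CoCl2, and whether that response is smaller when Sp1 is silenced. All cells were of 1 line, Sp1 was silenced with a single siRNA preparation, and each condition was a single culture on a single array, so there was no replicate, no test was possible and precision is limited by the number of arrays. The 4 comparisons between pairs of arrays share arrays and are not independent of each other. In RNA from whole cultures, fewer cells that express a gene and less RNA per cell cannot be told apart.

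The values below are scaled signals in arbitrary units, in which each array's 75th percentile was set to a common 1121. That percentile lay between 977.16 and 1287.5 before scaling, and between 33081 and 34542 spots per array were well above background. A ratio is the difference of log2 scaled signals between a pair of arrays, and it is given with a technical SD taken from the scatter of repeated spots, which does not cover differences between cultures. This SD is that of single spots, also for a probe whose 10 spots were averaged. A ratio of at least 1 in size, a 2.0-fold difference, was counted as a call. The siRNA target itself was lower in Sp1-si cells, with log2 ratios of -3.77 without and -3.87 with CoCl2 for the SP1 probe with 10 spots and of -3.96 and -4.30 for the other SP1 probe. The CCC markers NAPSA, PAX8 and ANXA4 and all 6 epithelial markers were well above background on every array. Of markers of other cell types, PTPRC for leukocytes, PECAM1 and CDH5 for endothelium and PDGFRB and COL3A1 for fibroblasts were well above background on no array, whereas LUM, DCN, THY1, CD3E, CD14 and VWF were on all 4.

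The genes divided into those with a measurable signal and those without. Of the 13 probes, 9 were well above background on all 4 arrays and 4 on none. The 9 measured probes belong to 8 genes, and the genes with no measured probe were LOX and PLOD2. No spot of the 13 probes was saturated. The plot of scaled signals shows these 9 probes.

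**Figure D1:**
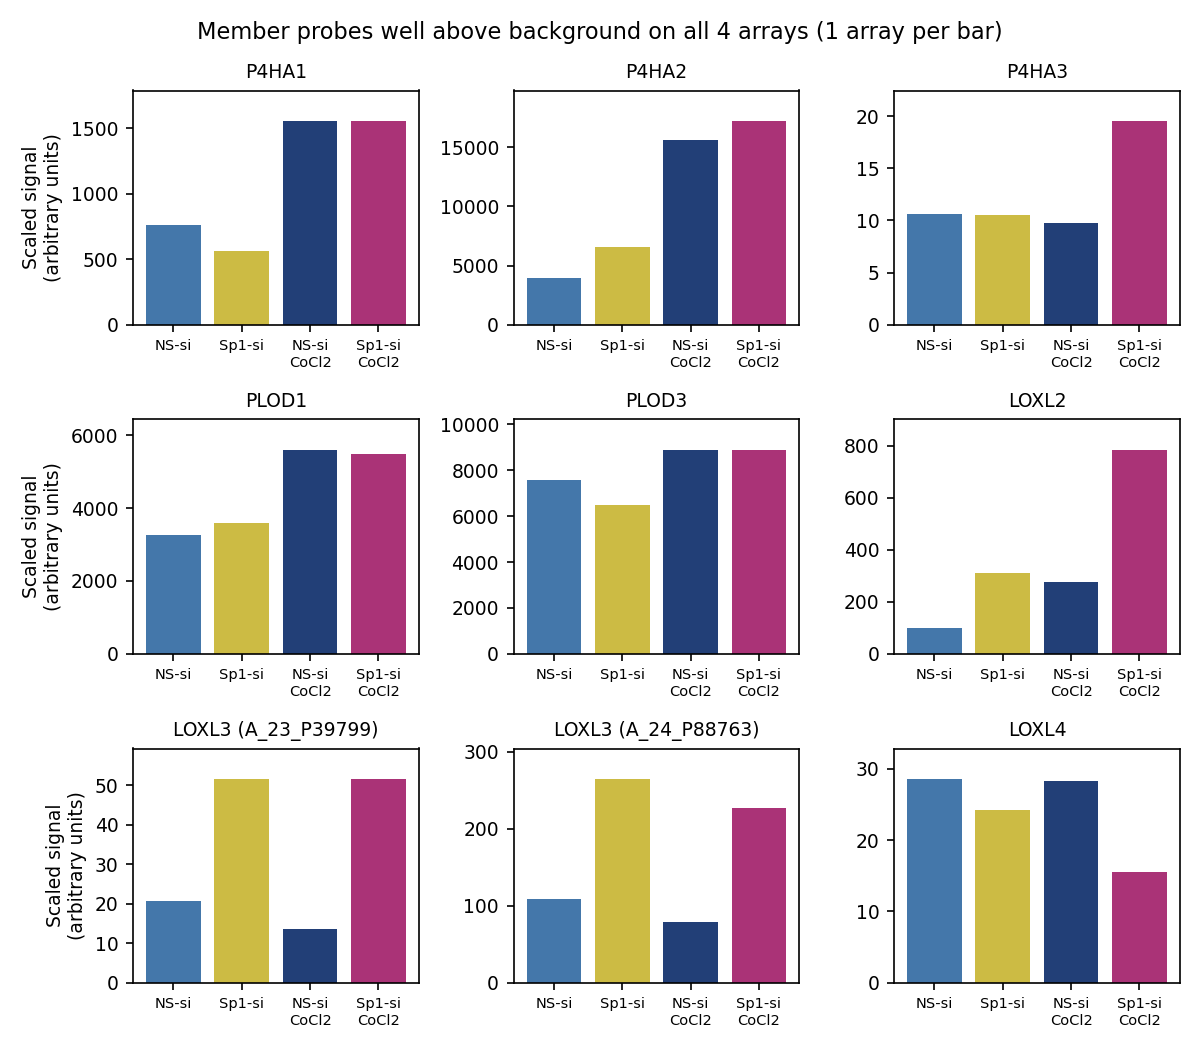
Scaled signals (arbitrary units, linear axes from 0) of the 9 measured probes, with 1 bar per array and no error bars because each condition has 1 array. P4HA1, P4HA2 and PLOD1 have their higher bars with CoCl2, both LOXL3 probes have theirs in Sp1-si cells, and LOXL2 is higher with either and highest with both.

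P4HA1 and P4HA2, the alpha subunits that make up most of the prolyl 4-hydroxylase of ordinary tissues, both had higher signals with CoCl2, whether or not Sp1 was silenced. To show the DNA around the starts of the genes whose signals differed, windows of 300 bases, from 250 before to 50 after a transcription start, are given from RefSeq on GRCh38.p14, each as the gene's own strand reads. They were searched on both strands for the core of the hypoxia response element, which is read as ACGTG or, in a variant, as GCGTG, and for the GC box, which is read as GGGCGG. Matches on the opposite strand appear in the windows as CACGT for the core, as CACGC for its variant and as CCGCCC for the GC box. The palindrome CACGTG would count on both strands, and a GC box may share its last base with a following GCGTG. In the sequences, capitals mark these matches and all other bases are in lower case. The window of P4HA1 is chr10:73096817-73097116, on the minus strand, and that of P4HA2 is chr5:132227042-132227341, also on the minus strand.
P4HA1: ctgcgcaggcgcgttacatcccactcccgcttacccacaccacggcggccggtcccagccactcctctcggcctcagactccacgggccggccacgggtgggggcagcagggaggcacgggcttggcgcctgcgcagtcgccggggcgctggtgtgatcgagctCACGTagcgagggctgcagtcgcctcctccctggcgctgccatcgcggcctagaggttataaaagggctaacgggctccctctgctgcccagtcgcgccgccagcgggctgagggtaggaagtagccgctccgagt
P4HA2: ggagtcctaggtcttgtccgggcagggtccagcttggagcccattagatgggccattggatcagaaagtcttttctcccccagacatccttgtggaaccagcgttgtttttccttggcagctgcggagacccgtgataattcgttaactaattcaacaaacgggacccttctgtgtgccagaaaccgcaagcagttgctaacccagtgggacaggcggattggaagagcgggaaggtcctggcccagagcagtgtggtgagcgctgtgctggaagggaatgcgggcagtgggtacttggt
The P4HA1 window holds 1 core, CACGT, beginning 86 bases before the start, and no GC box. The P4HA2 window holds neither letter string. Of all 35116 RefSeq windows of this length, 48.4% hold a core and 45.0% a GC box, so these matches are a description of the letters and not of binding.

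The P4HA1 probe had signals of 761 (NS-si), 560 (Sp1-si), 1556 (NS-si → CoCl2) and 1553 (Sp1-si → CoCl2). The pair of CoCl2 arrays was thus nearly level, and the arrays without CoCl2 were both lower. The log2 CoCl2 ratio was 1.03 ± 0.073 (technical SD) for NS-si and 1.47 ± 0.075 for Sp1-si cells, 2.04-fold and 2.77-fold. The ratio in NS-si cells lies close to the limit for a call, and was 0.81 without scaling, 0.90 after a normexp background correction and 0.95 in the value table that the authors deposited. The ratio in Sp1-si cells exceeded that in NS-si cells by 0.44 ± 0.11. In the scaled signals, that gap lay in the arrays without CoCl2, where the log2 ratio of Sp1-si to NS-si was -0.44 ± 0.078. Without scaling, the log2 ratio of Sp1-si to NS-si with CoCl2 was 0.40 and the gap was 0.89.

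P4HA2 gave 3965 (NS-si), 6582 (Sp1-si), 15630 (NS-si → CoCl2) and 17190 (Sp1-si → CoCl2). Its order without CoCl2 was the reverse of that of P4HA1, with the higher signal in Sp1-si cells. The log2 CoCl2 ratio was 1.98 ± 0.064 in NS-si cells, or 3.94-fold, which exceeded the ratios of 99.2% of the 32849 probes compared, and 1.38 ± 0.065 in Sp1-si cells, or 2.61-fold. The ratio in Sp1-si cells was smaller by a log2 difference of -0.59 ± 0.090, which came to -0.14 without scaling. Between Sp1-si and NS-si cells, the log2 ratio was 0.73 ± 0.066 without and 0.14 ± 0.064 with CoCl2. P4HA1 and P4HA2 therefore had CoCl2 ratios that differed between the cell kinds in opposite directions, by more than the technical SD in each case.

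P4HA3 encodes the remaining alpha subunit, which most tissues express weakly. One of its probes (A_23_P127957) was dim, at 10.6 (NS-si), 10.53 (Sp1-si), 9.75 (NS-si → CoCl2) and 19.5 (Sp1-si → CoCl2). The deposited signals of this probe, from 8.50 to 22.4, lie close to the lowest signals that counted as well above background on these arrays, from 6.72 to 10.2. The log2 CoCl2 ratio was -0.12 ± 0.33 for NS-si and 0.89 ± 0.32 for Sp1-si cells. The difference of 1.01 ± 0.47 was 2.2 technical SDs and became -0.073 after the normexp correction, and the log2 ratio of Sp1-si to NS-si with CoCl2 went from 1.002 ± 0.35 to -0.018. The other P4HA3 probe (A_24_P290286) was well above background on no array.

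The lysyl hydroxylases, whose products carry the sugars of collagen and form its stronger cross-links, gave 2 measured probes of 3. PLOD1, which modifies lysines within the helix, had signals of 3257 (NS-si), 3584 (Sp1-si), 5591 (NS-si → CoCl2) and 5491 (Sp1-si → CoCl2). Both arrays with CoCl2 lay above both without it, by log2 ratios of 0.78 ± 0.068 for NS-si and 0.62 ± 0.068 for Sp1-si cells, or 1.72-fold and 1.53-fold, under the limit for a call. Sp1-si against NS-si gave smaller log2 ratios, 0.14 ± 0.068 without and -0.03 ± 0.068 with CoCl2. The PLOD1 window, chr1:11934467-11934766 on the plus strand, is shown because PLOD1 is the lysyl hydroxylase with the larger CoCl2 ratios of the measured pair.
PLOD1: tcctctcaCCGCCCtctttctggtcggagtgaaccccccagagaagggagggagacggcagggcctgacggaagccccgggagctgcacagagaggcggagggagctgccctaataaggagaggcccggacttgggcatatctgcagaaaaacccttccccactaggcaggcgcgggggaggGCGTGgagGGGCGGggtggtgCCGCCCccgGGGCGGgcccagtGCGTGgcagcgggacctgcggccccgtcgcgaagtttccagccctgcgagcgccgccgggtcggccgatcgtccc
It holds 2 GCGTG cores, beginning 68 and 25 bases before the start, and 4 GC boxes, beginning 242, 60, 47 and 38 bases before the start.

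PLOD3, which also transfers the sugars to hydroxylysine, had signals of 7584 (NS-si), 6487 (Sp1-si), 8869 (NS-si → CoCl2) and 8883 (Sp1-si → CoCl2). The log2 CoCl2 ratios were 0.23 ± 0.064 for NS-si and 0.45 ± 0.066 for Sp1-si cells, a difference of 0.23 ± 0.090. As with P4HA1, the arrays with CoCl2 were nearly level after scaling and Sp1-si was the lower of those without CoCl2, by a log2 ratio of -0.23. Without scaling, the log2 ratio of Sp1-si to NS-si with CoCl2 was 0.40 for PLOD3. PLOD2, the hydroxylase of the collagen telopeptides, where lysine cross-links form, could not be measured. The deposited signals of its only probe were 2.41, 1.38, 4.59 and 6.47 on the NS-si, Sp1-si, NS-si → CoCl2 and Sp1-si → CoCl2 arrays, all under the lowest signal that counted as well above background, so no ratio is given and no level in these cells follows from it.

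Among the lysyl oxidases, LOXL2 was higher both with CoCl2 and with Sp1 silencing. LOXL2, which oxidises collagen IV of basement membranes and is linked to invasion in carcinomas, has 1 probe with 10 spots on each array. Its signals were 98.7 (NS-si), 312 (Sp1-si), 276 (NS-si → CoCl2) and 784 (Sp1-si → CoCl2). Before scaling, its 10 spots ran from 89.9 to 111 (NS-si), from 286 to 319 (Sp1-si), from 215 to 263 (NS-si → CoCl2) and from 828 to 945 (Sp1-si → CoCl2). The spots of an array share a culture and are not replicates of a condition.

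The log2 CoCl2 ratio of LOXL2 was 1.48 ± 0.12 for NS-si and 1.33 ± 0.085 for Sp1-si cells, 2.79-fold and 2.52-fold. The log2 ratio of Sp1-si to NS-si cells was 1.66 ± 0.11 without and 1.51 ± 0.10 with CoCl2, 3.15-fold and 2.84-fold. Each exceeded the ratios of at least 97.6% of the probes compared. The CoCl2 ratios of the 2 cell kinds differed by -0.15 ± 0.15, where the SD is that of single spots and not of the mean over 10. This gap took the opposite sign without scaling (0.30). LOXL2 was the only one of the 10 genes with a call in all 4 comparisons between arrays. Across the alternatives tried, its ratios stayed between 1.11 and 1.56 for CoCl2 and between 1.21 and 1.90 for Sp1 silencing.

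LOX, the founding member of the family, acts on fibrillar collagen and elastin. Its probe, also with 10 spots, was well above background on no array. The medians of its kept spots were 1.84 (NS-si), 1.72 (Sp1-si), 1.75 (NS-si → CoCl2) and 2.47 (Sp1-si → CoCl2), in deposited units. Over all arrays, 3 of its spots were flagged as outliers and left out. The plot of single spots sets this probe beside that of LOXL2, each against the background limit of its array.

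**Figure D2:**
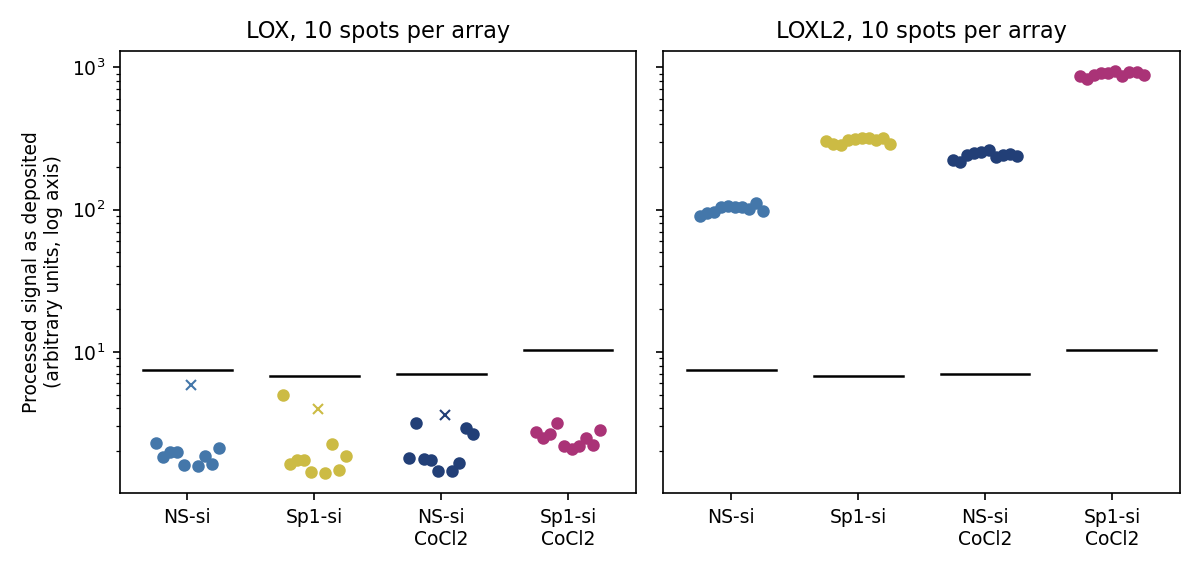
Processed signals as deposited (arbitrary units, log axis) of the 10 spots of the LOX probe and of the LOXL2 probe on each array, with crosses for spots flagged as outliers and a black line at the lowest signal that counted as well above background on that array. Every LOX spot lies under the line and every LOXL2 spot far above it.

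LOXL3, an oxidase of the same branch as LOXL2, was higher with Sp1 silencing by both of its probes, and was not higher with CoCl2 by the limit for a call. Probe A_24_P88763 gave 108 (NS-si), 265 (Sp1-si), 78.8 (NS-si → CoCl2) and 227 (Sp1-si → CoCl2). Probe A_23_P39799 gave 20.7, 51.5, 13.5 and 51.5 in the same order. On both probes, the Sp1-si arrays lay above the NS-si arrays whether or not CoCl2 was present.

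The log2 ratio of Sp1-si to NS-si cells was 1.29 ± 0.10 without and 1.53 ± 0.10 with CoCl2 for A_24_P88763, and 1.32 ± 0.17 and 1.93 ± 0.18 for A_23_P39799. After the normexp correction these became 0.96 and 0.94 for A_24_P88763 and 0.50 and 0.40 for A_23_P39799, which kept the direction and lost the call. In NS-si cells, the log2 CoCl2 ratios were -0.46 ± 0.10 for A_24_P88763 and -0.61 ± 0.17 for A_23_P39799. In Sp1-si cells, A_24_P88763 had a ratio of -0.22 ± 0.097, and A_23_P39799 had the same signal with and without CoCl2. The gap between CoCl2 ratios was 0.24 ± 0.14 for A_24_P88763 and 0.61 ± 0.24 for A_23_P39799. After the normexp correction both gaps turned sign, to -0.022 and -0.107, and the CoCl2 ratios of NS-si cells shrank to -0.19 and -0.017.

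RefSeq gives LOXL3 2 starts, with windows at chr2:74553893-74554192 and chr2:74549477-74549776, both on the minus strand. They are shown because LOXL3 had the Sp1-si ratios with calls on 2 probes.
LOXL3 start 1: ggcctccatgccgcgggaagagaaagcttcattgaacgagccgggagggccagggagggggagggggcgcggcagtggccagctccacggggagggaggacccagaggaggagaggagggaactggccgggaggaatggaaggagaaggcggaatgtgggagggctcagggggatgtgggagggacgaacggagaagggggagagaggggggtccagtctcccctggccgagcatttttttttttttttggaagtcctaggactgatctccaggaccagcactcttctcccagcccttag
LOXL3 start 2: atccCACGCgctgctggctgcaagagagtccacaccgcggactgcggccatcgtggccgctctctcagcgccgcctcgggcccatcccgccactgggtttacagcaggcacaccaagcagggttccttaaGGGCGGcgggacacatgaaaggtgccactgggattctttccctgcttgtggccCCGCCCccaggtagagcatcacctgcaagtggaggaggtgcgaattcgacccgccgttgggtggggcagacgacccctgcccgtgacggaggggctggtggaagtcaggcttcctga
The first holds neither a core nor a GC box. The second holds 1 core, CACGC, beginning 246 bases before the start, and 2 GC boxes, beginning 120 and 67 bases before it.

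LOXL4, the other oxidase with scavenger receptor domains, had 1 measured probe (A_23_P12755), at 28.6 (NS-si), 24.2 (Sp1-si), 28.3 (NS-si → CoCl2) and 15.5 (Sp1-si → CoCl2). The lowest of the 4 was the array with both treatments. The log2 CoCl2 ratio was -0.02 ± 0.20 for NS-si and -0.64 ± 0.19 for Sp1-si cells, which differ by -0.63 ± 0.30, and the log2 ratio of Sp1-si to NS-si with CoCl2 was -0.87 ± 0.20, under the limit for a call. Without scaling, the difference came to -0.18, and after the normexp correction the CoCl2 ratio of Sp1-si cells was -0.26 and the ratio to NS-si with CoCl2 was -0.41. The other LOXL4 probe (A_24_P406754) was well above background on no array.

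Windows of 8 members were searched in all, P4HA3 and LOXL2 not being among them. Those not printed held 3 cores and 1 GC box for PLOD2, no core and 4 GC boxes for PLOD3, no core and 7 GC boxes for LOXL4, and 4, 2 and 2 cores for the 3 starts of LOX, of which the last 2 windows overlap and the first alone has a GC box. Over all windows, ACGTG was found in 21.4% and GCGTG in 36.5%.

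Counted over the 9 measured probes, CoCl2 in NS-si cells gave 3 calls upward (P4HA1, P4HA2 and LOXL2) and 0 downward, where 4.54% of the 32849 probes compared were called upward and 4.34% downward. In Sp1-si cells, the same 3 probes were called upward and 0 downward, where the shares of all probes were 3.73% and 6.31%. The median log2 CoCl2 ratio of the 9 probes was 0.23 for NS-si and 0.62 for Sp1-si cells, and that of all probes was 0.02 and -0.03. The called probes were thus 2 prolyl hydroxylase subunits and 1 oxidase, and the remaining 6 probes ran from -0.61 to 0.78 for NS-si and from -0.64 to 0.89 for Sp1-si cells.

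**Figure D3:**
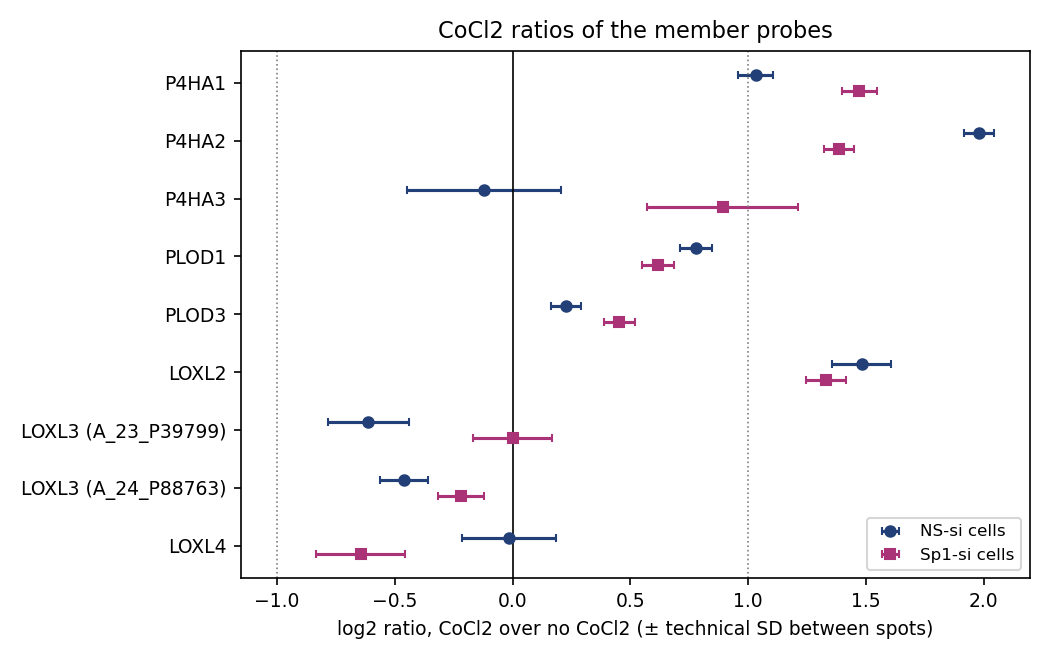
Log2 ratio of the array with CoCl2 to that without it for the 9 measured probes, as circles for NS-si cells and squares for Sp1-si cells, with bars of 1 technical SD between spots (not between cultures) and dotted lines at a ratio of 1 in size. P4HA1, P4HA2 and LOXL2 lie beyond the upper line in both cell kinds, with the P4HA1 ratio in NS-si cells (1.03) on its edge.

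For Sp1-si against NS-si without CoCl2, 3 of the 9 probes were called higher (LOXL2 and both of LOXL3) and 0 lower, where 5.52% of the 33024 probes compared were called higher and 5.87% lower. With CoCl2, 4 were called higher (the same 3 and P4HA3, with its ratio of 1.002 on the limit) and 0 lower, where the shares of all probes were 6.31% and 9.73%. Since both LOXL3 probes report the same gene, these counts stand for 2 and 3 genes. The median log2 ratio of the 9 probes was 0.14 both without and with CoCl2, and that of all probes was -0.01 and -0.08. The deposited signals of the 5 fibroblast markers on the array summed to between 2077 and 2647, lowest on the Sp1-si array. Those of the 3 endothelial markers summed to between 43.6 and 61.76, mostly from VWF, since PECAM1 and CDH5 were well above background on no array. Without scaling, the endothelial sums were higher on both Sp1-si arrays than on both NS-si arrays. With CoCl2, the percentile used for scaling was also higher for Sp1-si, 1287.5 against 977.16 for NS-si. The unscaled endothelial sums therefore do not show a difference between the CoCl2 arrays. Of the leukocyte markers, CD3E had deposited signals from 213.0 to 327.3 and CD14 from 127.4 to 179.8, and PTPRC was well above background on no array. The cultures were of 1 carcinoma line, and the relation of these marker signals to the LOXL2 and LOXL3 ratios was not tested.

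**Figure D4:**
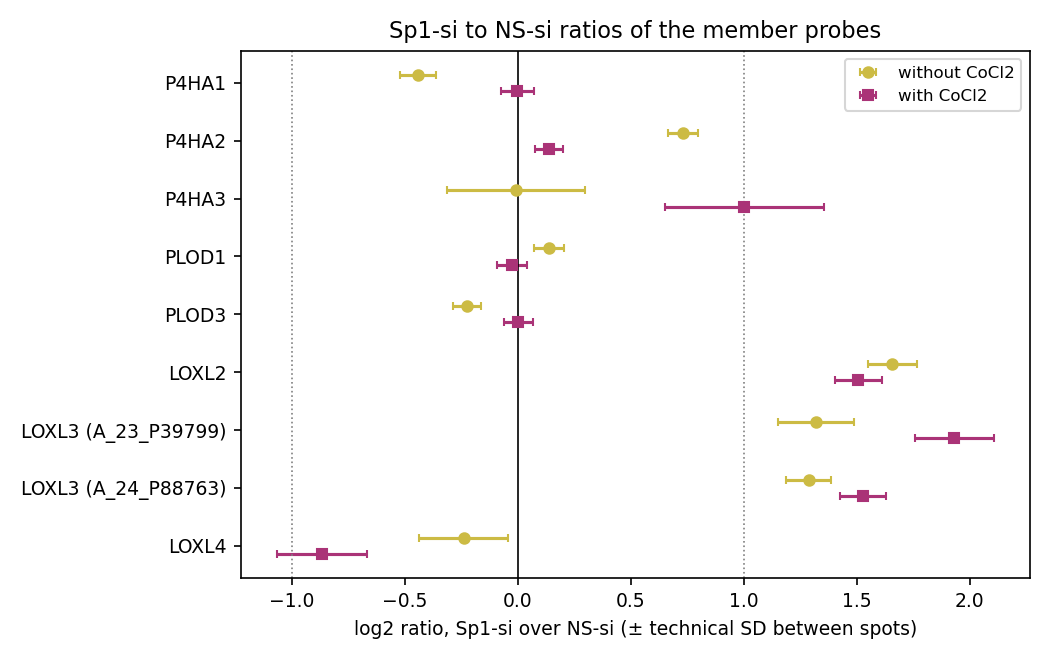
Log2 ratio of Sp1-si to NS-si cells for the 9 measured probes, as circles without CoCl2 and squares with it, with bars of 1 technical SD between spots (not between cultures) and dotted lines at a ratio of 1 in size. LOXL2 and both LOXL3 probes lie beyond the upper line in both, and no probe lies beyond the lower line, LOXL4 with CoCl2 coming nearest at -0.87.

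For the gap between the CoCl2 ratios, Sp1-si minus NS-si, 1 probe was called larger (the dim P4HA3 probe) and 0 smaller, where 1.04% of the 30234 probes measured on all arrays were called larger and 4.9% smaller. The gaps of the other 8 probes ran from -0.63 for LOXL4 to 0.61 for LOXL3 probe A_23_P39799. None of P4HA1, P4HA2 and LOXL2, the genes called for CoCl2, had a gap of 1 in size, and of these P4HA2 had the largest, -0.59. Leaving out the scaling adds 0.45 to every gap, which turned the sign for PLOD1 and LOXL2.

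Probes of other genes with a profile like that of P4HA1 were sought among the 20925 named probes measured on all 4 arrays, by the root mean square difference of log2 values over the 4 arrays after each profile was centred. The 5 nearest were MPP3 at 0.02, DNAJB2 at 0.04 and GGA2, ZNF432 and PFKP at 0.05 each. Their log2 CoCl2 ratios ran from 0.89 (GGA2) to 1.14 (ZNF432) for NS-si and from 1.32 (PFKP) to 1.48 (MPP3) for Sp1-si cells, around the 1.03 and 1.47 of P4HA1. The search used these same values, so ratios near those of P4HA1 follow from it. With 4 arrays, such likeness is a description of these profiles. No such list was made for LOX and PLOD2, which had no measurable profile.

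Of 24 other genes of collagen modification and folding, all on the array, 22 had a ratio for NS-si and 23 for Sp1-si cells, and 0 were called in either direction, with medians of 0.11 and -0.06. With a list of this size, 0 calls is near the shares of all probes called in NS-si cells, 4.54% upward and 4.34% downward. In Sp1-si cells, those shares were 3.73% and 6.31%. SERPINH1, the collagen chaperone HSP47, came nearest in NS-si cells at 0.89 and had 0.75 in Sp1-si cells. P4HB, protein disulphide isomerase, which joins the alpha subunits in prolyl 4-hydroxylase, had log2 CoCl2 ratios of 0.55 and 0.49. The partner subunit thus had smaller ratios than both P4HA1 and P4HA2 in these arrays.

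In the same list, Sp1 silencing without CoCl2 gave 1 call upward, P3H1 at 1.35, and 2 downward, CRTAP at -1.11 and LOXL1 at -1.85. These were of 23 genes with a ratio, and of all probes 5.52% were called higher and 5.87% lower. P3H1 is a prolyl 3-hydroxylase and CRTAP is its partner in the same complex. LOXL1, the oxidase most tied to elastin, was lower in Sp1-si cells, where LOXL2 and LOXL3 were higher. Its scaled signals were dim, at 45.0, 12.5, 32.6 and 18.7 on the NS-si, Sp1-si, NS-si → CoCl2 and Sp1-si → CoCl2 arrays. It was the only gene of the list with a called gap between CoCl2 ratios, 1.05 ± 0.30, close to the limit. That was of 21 genes, where 1.04% of all probes had a gap called larger and 4.9% smaller. With CoCl2, P3H1 (1.27), P3H3 (1.03), PCOLCE (1.13) and ADAMTS14 (1.26) were called higher in Sp1-si cells and P3H2 (-1.23) and SERPINH1 (-1.14) lower, of 22 genes. Of all probes, 6.31% were then called higher and 9.73% lower. The P3H3 probe was dim, with scaled signals from 11.0 to 26.3, and its ratio, close to the limit, had a technical SD of 0.25.

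Of 14 substrate genes, collagen chains and elastin, 13 were on the array. COL7A1, the chain of anchoring fibrils, was called for CoCl2 in NS-si cells at 1.01, of 12 with a ratio, and 0 of 11 were called in Sp1-si cells. Of all probes, CoCl2 called 4.54% upward and 4.34% downward in NS-si cells, and 3.73% and 6.31% in Sp1-si cells. The COL7A1 ratio is close to the limit, and with a list of this size 1 call is near those shares. The medians were 0.20 and 0.16. Sp1 silencing gave larger ratios, with COL6A1 at 1.93 and COL12A1 at 1.92 higher and COL1A2 at -3.10 lower without CoCl2, of 12 genes. Of all probes, 5.52% were called higher and 5.87% lower. With CoCl2, the ratios were 1.99 for COL6A1, 2.19 for COL12A1, -2.92 for COL1A2 and -1.06 for COL4A1, again of 12 genes. Of all probes, 6.31% were then called higher and 9.73% lower. COL1A2 was dim in Sp1-si cells, at scaled signals of 8.86 without and 10.2 with CoCl2, against 76.1 and 77.1 in NS-si cells. Its ratios had technical SDs of 0.30 without and 0.50 with CoCl2. In the Sp1-si arrays, signals of these substrate and enzyme genes thus lay on both sides of those in NS-si cells.

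A list of 25 other genes that depend on hypoxia response elements served as a scale for the CoCl2 ratios. It was chosen with earlier results of these data known, so its calls and median are not an independent measure. In NS-si cells, 19 of 23 with a ratio were called upward, with a median of 1.81, from -0.13 for VLDLR to 3.77 for PFKFB4. In Sp1-si cells, 19 of 24 were called, with a median of 1.58. The CoCl2 ratio of P4HA2 in NS-si cells (1.98) lay above this median and those of P4HA1 (1.03) and LOXL2 (1.48) below it, and all 3 lay below it in Sp1-si cells. Of 24 other 2-oxoglutarate-dependent oxygenases, the wider enzyme class of the hydroxylases, 21 were on the array. Of 20 with a ratio, 7 were called upward in NS-si cells, among them KDM3A at 2.15, EGLN3 at 2.15 and JMJD6 at 2.09, with a median of 0.38. In Sp1-si cells, 6 were called upward and 1 downward, KDM4A at -1.55, with a median of 0.54. Beside the CoCl2 calls of both lists, 4.54% of all probes were called upward in NS-si cells. In Sp1-si cells, 3.73% were called upward and 6.31% downward. EGLN1, EGLN3 and KDM3A are on both of these lists.

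**Figure D5:**
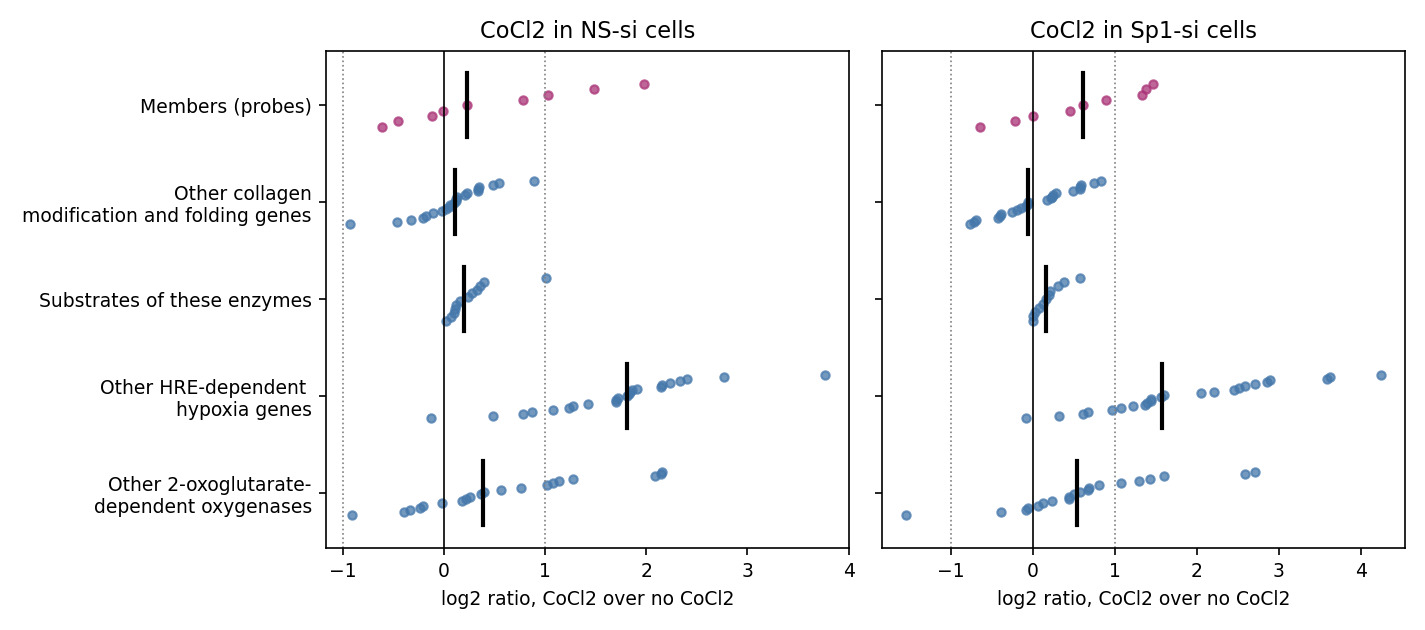
Log2 CoCl2 ratios in NS-si cells (left) and Sp1-si cells (right) of the 9 measured member probes and of 4 gene lists, with 1 point per probe or gene, spread vertically by rank for legibility only, a black bar at each median and dotted lines at a ratio of 1 in size. In NS-si cells, the member probes spread from -0.61 to 1.98 around a median of 0.23, and the medians were 1.81 for the HRE-dependent genes and 0.11 for the other collagen modification genes.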

How the data were processed

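RNA of OVSAYO cells was measured on 4 single-colour Agilent arrays, 1 per condition. The authors deposited intensities as written by Agilent Feature Extraction 10.5.1.1 per the file headers (annotation build hg18), after background subtraction and detrending and without scaling between arrays, and their value table is this signal times 1 constant per array. From them, log2 signals minus each array's 75th percentile were computed without outlier spots and averaged over a probe's spots. A probe was well above background if 50% or more of its kept spots were. Technical SDs came from probes with 10 spots, and for a probe with 1 spot from the median of the 53 nearest in signal. For a listed gene, the probe of highest mean signal was used, and genes with a ratio of at least 1 in size could be named, beside others chosen after their values were seen. Members and lists were chosen with earlier results of these data known. Counting was tested on simulated data. Symbols and promoter windows are from RefSeq (GRCh38.p14). With 1 array per condition, leaving out or pairing replicates was not possible. Python 3.11.15, numpy 2.4.6, pandas 2.3.3, matplotlib 3.10.9, R 4.3.3 and limma 3.58.1 were used. Some marker genes are not reported here.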

Additional observations from a re-analysis of the deposited data

How the results depend on the processing

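Alternatives were quantile, median and no scaling, the percentile over probes measured on all arrays, the deposited value table, normexp with an offset of 50 on median signals, a floor on dim signals, only probes measured on all arrays, outlier spots kept, the mean per gene, and limits for a call of 1.5-fold and of 1.5 on the log2 scale. Matching by a gene name column was not run, since the scanner tables used here hold no such column. No paired analysis was possible because each condition has 1 array. With normexp, 1 probe was higher in Sp1-si cells without CoCl2, 1 with CoCl2, and 0 had a larger CoCl2 ratio there, and P4HA3 gave -0.018 for Sp1-si against NS-si with CoCl2 and -0.073 for the gap between CoCl2 ratios. Without scaling, 2 probes had a larger CoCl2 ratio in Sp1-si cells. At the 1.5-fold limit, 5 probes were raised by CoCl2 in Sp1-si cells, 1 was lower in Sp1-si cells with CoCl2, 2 had a smaller and 2 a larger CoCl2 ratio. At 1.5 on the log2 scale, CoCl2 raised 1 probe with the control siRNA and 0 in Sp1-si cells, 1 was higher in Sp1-si cells without CoCl2, and 0 had a larger CoCl2 ratio. The other 84 counts stayed within 1.5 times their main value. Among them, the floor, the restriction to probes measured on all arrays and the keeping of outlier spots could not change any member ratio. Every member probe was measured on all arrays or on none, and only the unmeasured LOX probe had outlier spots. Of 14 member ratios of at least 1 in size, 12 kept their sign under every alternative, and of 31 smaller ones, 11 changed sign under at least 1. The causes of these shifts were not tested. Signal over background limits P4HA3, LOXL3 and LOXL4, and allows no statement on LOX and PLOD2.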
